A study of Sus scrofa with 92 samples.

Results

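The genes described here are 8 markers of T cells and natural killer (NK) cells, followed through hemorrhagic shock and resuscitation in pig liver. They are CD3E and CD3D, chains of the T cell receptor complex, CD8A, the coreceptor chain of cytotoxic T cells, PRF1 and GZMB, proteins of the cytotoxic granule, IL2RB and IL12RB2, cytokine receptor chains, and KLRK1, an activating NK receptor. They were taken by symbol. Of the 8 symbols, 5 had a pig Ensembl identifier among the 25322 rows of the count table: CD3D (ENSSSCG00000015093), CD8A (ENSSSCG00000008217), PRF1 (ENSSSCG00000010271), IL2RB (ENSSSCG00000029668) and IL12RB2 (ENSSSCG00000003799). CD3E, GZMB and KLRK1 were matched to no row and are not analysed here. All 5 matched genes were among the 13667 rows that passed the filter on low counts in the fit over time, and 4 of them, without IL12RB2, passed it at single timepoints. The identifiers belong to the Sscrofa10.2 build, and their positions on it are not given here.

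T cells recognise peptides on other cells through a receptor whose signal is carried into the cell by the CD3 chains, and cytotoxic T cells bind their targets with CD8 as a coreceptor. Cytotoxic T cells and NK cells share an effector program in which perforin opens the target membrane to granzymes, and both respond to interleukins 2, 12 and 15 through receptors that contain the IL2RB and IL12RB2 chains. The liver is known for the many CD8 T cells and NK cells that reside in its sinusoids.

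RNA-seq libraries came from peripheral liver biopsies of 23 juvenile male Yorkshire-Landrace pigs. All were fasted overnight, and 18 received nothing more (fasted, FS) while 5 were given a bolus of Karo syrup, a mixture of sugars, 1 h before induction of anesthesia (carbohydrate prefed, CPF). Each animal was biopsied at Baseline (B), taken once it was stable after instrumentation, and at 2, 8 and 20 h after full resuscitation began (FR2, FR8, FR20). Every animal of both groups was splenectomized and then received a blunt chest injury by captive bolt, a withdrawal of blood to shock pressures, a liver crush injury, limited resuscitation with lactated Ringer's fluid and full resuscitation with ventilation and return of the shed blood. No animal without injury is among the libraries, so time, surgery and shock cannot be told apart in a change from Baseline. Of the FS animals 3 died and 15 lived, and of the CPF animals 2 died and 3 lived.

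Of 92 libraries, 88 were used, with 6877117 to 16613261 counts and a median of 12071958. Albumin took 13202 to 168246 CPM (a count scaled to the library total) in the 88. It stood at 0.197, 52.7 and 0.312 CPM in 3 FS Baseline libraries (animals 13, 14 and 16), which were left out, as was the FR8 library of CPF animal 1, which held 4388 counts. Comparisons with Baseline in FS animals therefore rest on 15 Baseline libraries, and FR8 in CPF animals on 4. Levels below are CPM scaled by the trimmed mean of M values (TMM), which allow a gene to be compared between libraries but not with another gene. A gene is said to have fallen or risen where its Benjamini-Hochberg adjusted p over all rows tested was under 0.05 and its log2 fold change was at least 1 in size, by edgeR's quasi-likelihood F test with a term for each animal. The 3 later timepoints of a group share its Baseline libraries. In bulk tissue, fewer T or NK cells and less of a transcript per cell cannot be told apart.

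IL2RB fell at FR2, FR8 and FR20 in CPF animals and at FR20 in FS animals, and it was lower than Baseline in each of the 15 FS and 5 CPF animals with both libraries at FR20. PRF1 fell at FR8 and FR20 in FS animals. CD8A fell at FR8 in CPF animals and passed the adjusted p without the fold threshold at FR8 and FR20 in FS animals. CD3D passed the test in none of the 21 comparisons made. IL12RB2 was near the limit of detection and is given as counts.

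**Figure D1:**
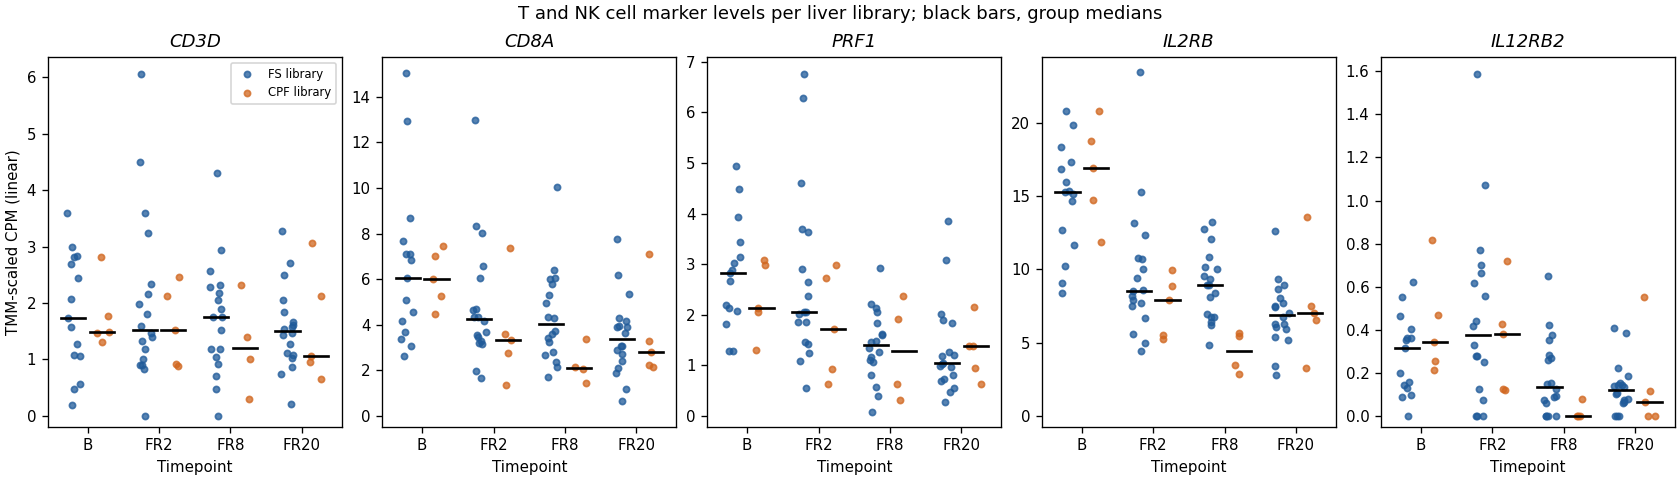
Each point is the TMM-scaled CPM (linear axis, one scale per gene) of a gene in 1 liver library, by timepoint, with FS libraries in blue and CPF libraries in orange and black bars at group medians. IL2RB medians drop from 15.3 to 6.87 in FS and from 16.9 to 4.45 at FR8 in CPF, while the CD3D medians lie between 1.07 and 1.76 in every group.

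**Figure D2:**
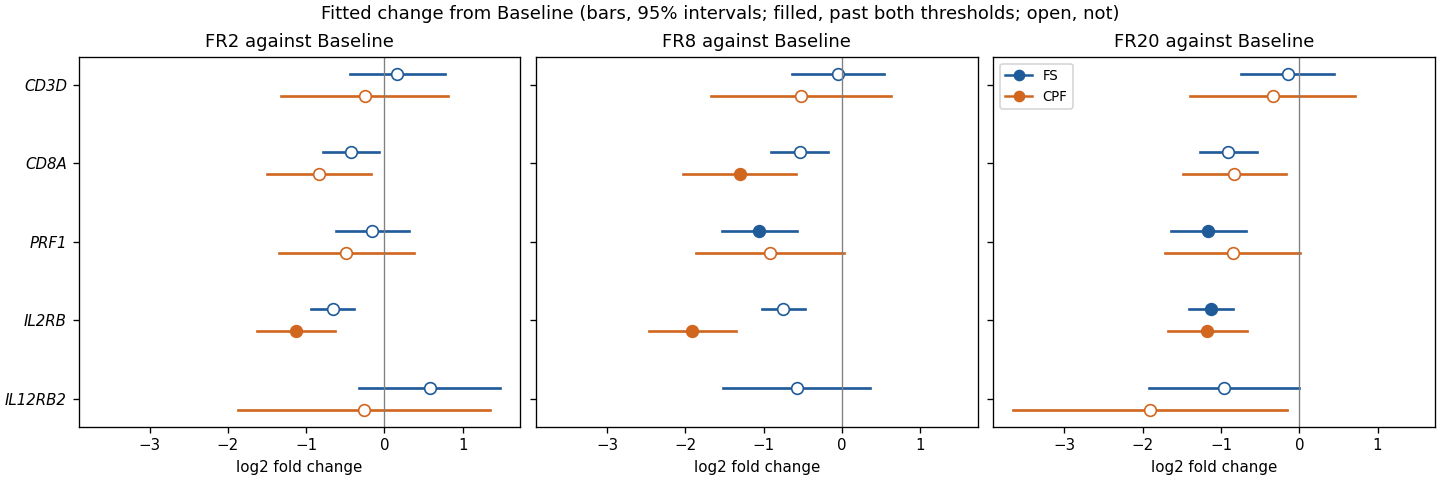
Fitted log2 fold change from Baseline for each gene at FR2, FR8 and FR20, with 95% intervals, in FS (blue) and CPF (orange) animals. Filled points passed both thresholds, and IL12RB2 in CPF animals at FR8, with 1 count in all, is not drawn. IL2RB lies left of 0 in both groups in all 3 panels, from −0.66 to −1.91.

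CD3D, a chain through which the T cell receptor signals, passed the test at no timepoint. In FS animals its lowest, median and highest values were 0.199, 1.73 and 3.60 CPM at B, 0, 1.53 and 6.06 at FR2, 0, 1.76 and 4.30 at FR8 and 0.220, 1.5003 and 3.28 at FR20. In CPF animals 1 to 5 it stood at 1.49, 1.46, 1.31, 1.76 and 2.82 CPM at B and at 3.06, 0.657, 0.957, 2.12 and 1.07 at FR20. All groups overlapped, and 2 of the 88 libraries had no CD3D count. The log2 fold change from B in FS animals was 0.17 ± 0.31 (SE) at FR2, −0.05 ± 0.30 at FR8 and −0.15 ± 0.30 at FR20 (adjusted p = 0.693, 0.913 and 0.733). In CPF animals it was −0.25 ± 0.54, −0.52 ± 0.59 and −0.34 ± 0.54. The 95% interval at FR20 in FS animals ran from −0.74 to 0.44. The fitted values of PRF1 and IL2RB in that comparison lie outside it, but the PRF1 interval, −1.64 to −0.68, overlaps it. No difference between genes was tested. The CD3D interval at FR8 in CPF animals, −1.67 to 0.63, is wider. It holds the PRF1 value of that CPF comparison (−0.92) but not the IL2RB value (−1.91). The IL2RB interval there, −2.47 to −1.35, overlaps it. The sign of the CD3D value at FR8 in FS animals turned with single animals left out (0.21 without animal 8).

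CD8A encodes the coreceptor chain that cytotoxic T cells carry and that NK cells of the pig also carry. In FS animals the lowest, median and highest levels were 2.64, 6.04 and 15.03 CPM at B, 1.67, 4.23 and 12.99 at FR2, 1.70, 4.02 and 10.05 at FR8 and 0.656, 3.37 and 7.76 at FR20. The groups overlapped at every timepoint, yet within animals CD8A was lower than at B in 10 of 15 at FR2, 11 of 15 at FR8 and 14 of 15 at FR20. The log2 fold change was −0.42 ± 0.18 at FR2 (adjusted p = 0.0573), −0.54 ± 0.19 at FR8 (adjusted p = 0.0171) and −0.91 ± 0.19 at FR20 (adjusted p = 1.20e-04), short of the fold threshold. Without FS animal 7 the value at FR20 was −1.02 and passed both thresholds.

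In CPF animals 1 to 5, CD8A stood at 7.02, 6.01, 5.24, 4.48 and 7.44 CPM at B and at 7.36, 3.31, 2.77, 3.58 and 1.38 at FR2. At FR8 it was 3.38, 2.16, 1.44 and 2.05 in animals 2 to 5, with no overlap with B. At FR20 it was 3.29, 2.16, 2.23, 7.11 and 2.82, and only animal 4 was above its own Baseline. CD8A fell at FR8, by 1.30 ± 0.37 on the log2 scale (adjusted p = 0.0146). The call did not hold without animal 4 (−1.18, adjusted p = 0.0504) or without animal 5 (−1.17, adjusted p = 0.0876). At FR2 and FR20 the log2 fold change was −0.83 with a standard error of 0.34 (adjusted p = 0.153 and 0.197), and without animal 4 the FR20 value was −1.30 (adjusted p = 0.0281).

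PRF1 encodes perforin, the pore-forming protein of cytotoxic granules. In FS animals its lowest, median and highest levels were 1.27, 2.83 and 4.94 CPM at B, 0.558, 2.05 and 6.76 at FR2, 0.0842, 1.41 and 2.92 at FR8 and 0.272, 1.04 and 3.85 at FR20. The FR2 levels spanned the whole Baseline range and went past it on both sides, and the shift showed from FR8 on. PRF1 was lower than at B in 7 of 15 FS animals at FR2 and in 14 of 15 at both FR8 and FR20. Its log2 fold change was −0.16 ± 0.24 at FR2 (adjusted p = 0.624), −1.05 ± 0.24 at FR8 (adjusted p = 3.90e-04) and −1.16 ± 0.24 at FR20 (adjusted p = 1.71e-04). Between FR2 and FR8 it was −0.90 ± 0.23 (adjusted p = 0.00213), lower in 16 of 18 animals. The FR8 value lay so near the fold threshold that leaving out FS animal 1, 4, 8 or 10 brought it to between −0.94 and −0.997 and ended the call, with adjusted p of 9.92e-04 to 0.00211.

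In CPF animals 1 to 5, PRF1 stood at 2.13, 2.06, 1.31, 2.99 and 3.08 CPM at B and at 2.16, 0.938, 0.638, 1.39 and 1.38 at FR20. At FR8 animals 2 to 5 had 2.37, 0.636, 1.92 and 0.308, with 1 of the 4 above its Baseline. The log2 fold change was −0.49 ± 0.44 at FR2, −0.92 ± 0.48 at FR8 and −0.85 ± 0.44 at FR20, of which none passed the test (adjusted p = 0.565, 0.198 and 0.321). The interval at FR8, −1.86 to 0.02, holds the FS value.

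IL2RB encodes the β chain of the receptors for interleukins 2 and 15, on which resident memory T cells and NK cells depend. In FS animals its lowest, median and highest levels were 8.35, 15.3 and 20.8 CPM at B, 4.402, 8.55 and 23.4 at FR2, 4.81, 8.92 and 13.2 at FR8 and 2.79, 6.87 and 12.6 at FR20. Within animals IL2RB was lower than at B in 12 of 15 at FR2, 14 of 15 at FR8 and 15 of 15 at FR20, although the groups overlapped. The log2 fold change was −0.66 ± 0.14 at FR2 (adjusted p = 1.37e-04), −0.75 ± 0.14 at FR8 (adjusted p = 3.07e-05) and −1.13 ± 0.14 at FR20 (adjusted p = 1.25e-08). The step from FR8 to FR20 was −0.38 ± 0.13 (adjusted p = 0.0680), in 14 of 18 animals downward.

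In CPF animals 1 to 5, IL2RB stood at 16.9, 14.7, 11.9, 20.8 and 18.7 CPM at B and at 9.95, 8.87, 5.24, 7.92 and 5.51 at FR2. At FR8 it was 3.47, 2.86, 5.43 and 5.65 in animals 2 to 5, and at FR20 7.49, 3.28, 7.02, 13.6 and 6.52 in animals 1 to 5. The FR2 and FR8 levels did not overlap those at B, and at FR20 animal 4 reached into the Baseline range. IL2RB fell by 1.13 ± 0.26 on the log2 scale at FR2 (adjusted p = 0.00884), by 1.91 ± 0.29 at FR8 (adjusted p = 9.38e-05) and by 1.17 ± 0.25 at FR20 (adjusted p = 0.0173). From FR8 to FR20 it was higher in 3 of 4 animals, by 0.73 ± 0.28 (adjusted p = 0.305). The FR8 call held with any CPF animal left out (−2.03 to −1.85). The FR2 call was lost without animal 4 or 5 (adjusted p = 0.0663 and 0.0927), and the FR20 call without animal 1, 2, 3 or 5 (adjusted p = 0.0748 to 0.128).

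**Figure D3:**
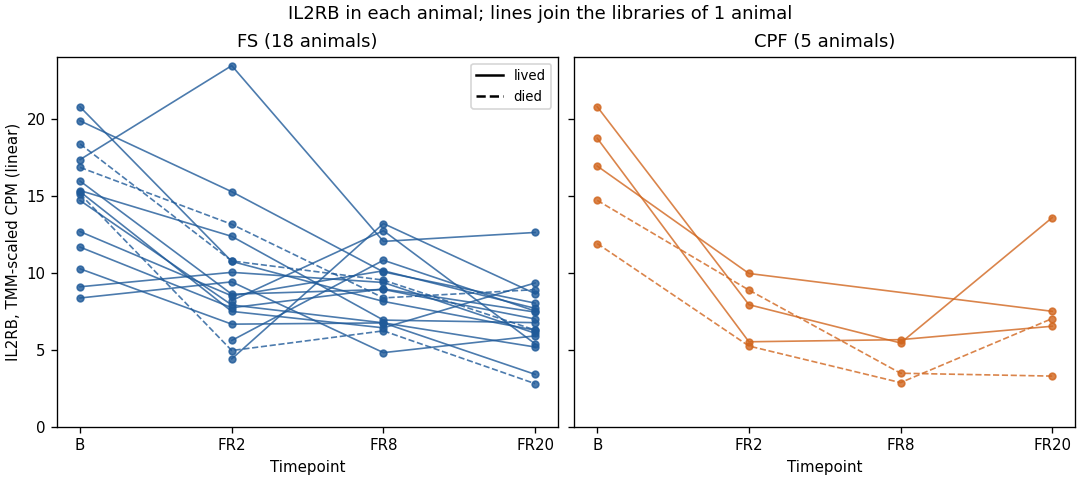
IL2RB level (TMM-scaled CPM, linear axis from 0) in each FS animal (left) and CPF animal (right) at the 4 timepoints, with lines joining the libraries of an animal and broken lines for animals that died. In CPF animals every line drops from B to FR2, and at FR8 the 4 values lie between 2.86 and 5.65. In FS animals the 15 lines that have a Baseline point end at FR20 below it.

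IL12RB2, the signalling chain of the interleukin 12 receptor, had 264 counts over the 88 libraries and none in 16 of them, so its values carry large counting errors. The floor of 3 counts corresponded to between 0.181 and 0.436 CPM, above most of its levels. In FS animals the summed counts were 43 at B, 94 at FR2, 47 at FR8 and 34 at FR20, and the ratio of summed counts per total to that at B was 1.82 (95% exact interval 1.25 to 2.67) at FR2, 0.814 (0.527 to 1.26) at FR8 and 0.609 (0.376 to 0.977) at FR20. These intervals cover counting error only, and the fit over animals passed none of these 3 changes (log2 fold change 0.58 ± 0.46, −0.58 ± 0.48 and −0.96 ± 0.49). The step from FR2 to FR8 did pass it in FS animals (−1.16 ± 0.43, adjusted p = 0.0379), lower in 12 of 18 animals. That call was lost without FS animal 2, 3, 5, 8, 11, 12, 15 or 17 (−1.15 to −0.93, adjusted p = 0.0513 to 0.108).

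In CPF animals IL12RB2 had 2 to 6 counts a library at B (19 in all), 1 to 7 at FR2 (18 in all), and 8 in all at FR20. At FR8 it had 0 counts in animals 2, 3 and 5 and 1 in animal 4, below each Baseline library. The ratio of summed counts at FR8 to B was 0.0612 (95% exact interval 0.00147 to 0.385), and at FR20 0.411 (0.156 to 0.984). The fit passed the change from B to FR8 (adjusted p = 0.0186) and from FR2 to FR8 (adjusted p = 0.0445), and its fold changes are not given since they rest on 1 count. Without CPF animal 2, 3 or 5 the first was at adjusted p = 0.0583 to 0.0842, and the second was lost whichever of the 5 CPF animals was left out (adjusted p = 0.0666 to 0.188).

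Counted over the 5 genes, 0 fell at FR2 in FS animals (5.85% of all rows tested fell), 1 at FR8 (7.39% of all rows) and 2 at FR20 (5.25%). None rose, where 5.17% of all rows rose at FR2 and 4.68% at FR20. At FR2 in FS animals, 2 genes had an unadjusted p under 0.05, as did 6668 of the 13667 rows tested. DESeq2 also called 0 of the 5 there. In CPF animals 1 fell at FR2 (0.937% of all rows), 3 at FR8 (5.14%) and 1 at FR20 (0.454%). Again none rose, where 3.70% of all rows rose at FR8. Between FR2 and FR8, 1 fell in FS animals (3.43% of all rows) and 1 in CPF animals (2.36%), both times IL12RB2. From FR8 to FR20 none was called in either group (0.278% and 0.0146% of all rows fell), and DESeq2 called 0. There 2 and 1 had an unadjusted p under 0.05, as did 2962 and 1484 of the 13667 rows. With 5 genes, counts of 0 or 1 are not set apart from these shares, and the counts of 2 and 3 were not tested against them. Of the 3 at FR8 in CPF animals, 1 is IL12RB2, with 1 count in all there.

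The 3 well-detected genes that were lower did not always move in the same animals. IL2RB, CD8A and PRF1 were all 3 below their Baseline in 5 of 15 FS animals at FR2, 10 of 15 at FR8 and 13 of 15 at FR20, and in 3 of 5, 3 of 4 and 3 of 5 CPF animals. At FR20 the remaining 2 FS animals and 2 CPF animals had 2 of the 3 lower. Ordered by mean level over the 8 groups of fed state and timepoint, each neighbouring pair of groups differed by less than the larger of their SDs for CD3D, CD8A, PRF1 and IL12RB2. For IL2RB 5 of 7 neighbouring pairs did. The order ran from CPF B (16.6 ± 3.46 CPM, SD, n = 5) and FS B (14.8 ± 3.74, n = 15) through FS FR2 (9.73 ± 4.44, n = 18), FS FR8 (8.89 ± 2.35, n = 18), CPF FR20 (7.58 ± 3.74, n = 5), CPF FR2 (7.50 ± 2.07, n = 5) and FS FR20 (6.95 ± 2.24, n = 18) to CPF FR8 (4.35 ± 1.40, n = 4). The gaps that exceeded the spread lay between FS B and FS FR2, and between FS FR20 and CPF FR8.

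The Baseline libraries without albumin bear on the calls. With those 3 kept, IL2RB in FS animals was at −0.42 (adjusted p = 0.0605) at FR2, −0.46 (adjusted p = 0.0419) at FR8 and −0.87 (adjusted p = 2.47e-04) at FR20, so that the FR20 call was lost on the fold threshold. PRF1 at FR20 stayed called (−1.06, adjusted p = 5.39e-04), and at FR8 it was at −0.96. In CPF animals, whose own libraries were the same, IL2RB stayed called at FR8 (−1.91, adjusted p = 0.00376) but not at FR2 (adjusted p = 0.0767) or FR20 (adjusted p = 0.218), and CD8A at FR8 was at adjusted p = 0.0638. In these 3 libraries IL2RB stood at 3.25, 2.52 and 6.68 CPM of the library total, below the 7.80 to 16.8 of the 15 FS Baseline libraries used.

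The study asked whether feeding before shock altered the liver's response, and the CPF change was therefore set against the FS change. For IL2RB at FR8, the log2 change within each of the 4 CPF animals (−2.03 to −1.70) lay below that of each of the 15 FS animals (−1.33 to 0.04). No gene of the 5, and 0% of all rows, was called in that difference. The fitted difference was −1.16 ± 0.31 for IL2RB, with an unadjusted p of 4.26e-04 and an adjusted p of 0.999 over the 13667 rows. It was −0.76 ± 0.41 for CD8A (unadjusted p = 0.0671), whose changes overlapped between the groups. IL12RB2 had an unadjusted p of 0.00899 for it (adjusted p = 0.999), with 1 CPF count in all at FR8. DESeq2 called 0 of 5 for the difference as well. Of the 13667 rows, 468 had an unadjusted p under 0.05 for the FR8 difference. At FR2 and FR20 none was called, and the IL2RB changes of both groups overlapped. None had an unadjusted p under 0.05 there, where 397 and 521 of the 13667 rows did.

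Set directly against each other at a timepoint, CPF and FS animals gave no call among the 4 genes tested by the quasi-likelihood test, at B (0.0257% of all rows called), FR2, FR8 or FR20 (0% each). At FR8, 2 of 4 had an unadjusted p under 0.05, as did 617 of the 11951 rows tested. IL2RB was lower in CPF animals there by 1.04 ± 0.25 on the log2 scale (unadjusted p = 4.19e-04, adjusted p = 0.763), and DESeq2 called this gene (adjusted p = 0.0445). The shares above are of the quasi-likelihood test, and the share of all rows that DESeq2 called is not given. At B the IL2RB difference was 0.17 ± 0.19, with a 95% interval from −0.20 to 0.55. The CPF levels of CD8A at FR8, 1.44 to 3.38 CPM, lay within or below the FS range of 1.70 to 10.05.

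Animals that died were compared with those that lived, with a term for fed state. No gene of the 4 was called at any timepoint by the quasi-likelihood test (0% of all rows each), and DESeq2 called 0 of the 4. At FR8 and FR20, 1 gene each had an unadjusted p under 0.05, as did 265 of 11951 and 642 of 12307 rows. PRF1 at FR20 was lower in animals that died, at 0.680, 0.815 and 0.272 CPM in 3 FS animals against 0.465 to 3.85 in the 15 that lived, and at 0.938 and 0.638 in 2 CPF animals against 1.38 to 2.16 in 3. The difference was −1.23 ± 0.44 on the log2 scale (unadjusted p = 0.00983, adjusted p = 0.871). CD8A at FR8 was at 4.30, 10.05 and 6.40 CPM in the FS animals that died and at 1.70 to 6.04 in those that lived, a fitted difference of 0.79 ± 0.28 (unadjusted p = 0.00971, adjusted p = 1).

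The genes most like each marker across the 88 libraries were named by Spearman correlation of log2 CPM, as a description over libraries that share animals and timepoints. CD8A was most like LCK, the kinase bound to CD4 and CD8 (0.77), RAC2 (0.74) and SEPTIN1 (0.73). IL2RB was most like SEPTIN1 (0.74), CD2, an adhesion receptor of T and NK cells (0.73), and CXCR6, a homing receptor of liver-resident lymphocytes (0.73). PRF1 was most like CD2 (0.66), CCL5 (0.61), a chemokine stored by cytotoxic cells, and CST7 (0.59), an inhibitor of granule proteases. CD3D was less closely matched, by PLEKHO2 (0.53), SASH3 (0.53) and PTPRC (0.50). IL12RB2 was matched by EEF2K (0.54), SMAD3 (0.53) and CABLES1 (0.52). Between the 5 genes the correlation was highest for CD8A and IL2RB (0.64) and lowest for CD8A and IL12RB2 (0.24). With the mean of each group of fed state and timepoint taken off, these correlations were 0.431 and 0.0120.

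Other genes of T and NK cells were followed by list. Of the T cell receptor and signalling list, 17 of 24 symbols were matched and 14 rows were tested. In FS animals 1 of these fell at FR2, 1 at FR8 and 2 at FR20, and in CPF animals 1, 5 and 0, where 5.85%, 7.39% and 5.25% of all rows fell in FS animals and 0.937%, 5.14% and 0.454% in CPF animals. The list's median log2 fold change was −0.24, −0.31 and −0.76 in FS animals and −0.70, −1.01 and −0.92 in CPF animals, beside medians of −0.04 to 0.05 for all rows. SKAP1, an adaptor of T cell adhesion, fell at each FS timepoint (−1.06 ± 0.23, −1.04 ± 0.23 and −1.12 ± 0.22) and at FR2 and FR8 in CPF animals (−1.58 ± 0.42 and −2.67 ± 0.49). CD6, a T cell costimulatory receptor, fell at FR20 in FS animals (−1.04 ± 0.28). At FR8 in CPF animals the others that fell were CD4, the coreceptor of helper T cells (−1.08 ± 0.29), CD2 (−1.18 ± 0.33), CD5, which damps receptor signalling (−1.50 ± 0.47), and UBASH3A (−1.98 ± 0.68). The highest value in FS animals at FR20 was that of CD247, the zeta chain of the receptor complex (0.22 ± 0.15), and in CPF animals at FR8 that of CD8B (0.06 ± 0.52), neither past the test.

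Of the list of T cell rest and homing, 11 rows were tested. CXCR6 and IL7R, the receptor of the survival cytokine interleukin 7, fell at FR8 and FR20 in FS animals (CXCR6 −1.23 ± 0.30 and −1.67 ± 0.29, IL7R −1.04 ± 0.20 and −1.21 ± 0.20) and at FR8 in CPF animals (−1.76 ± 0.59 and −1.39 ± 0.41). CD69, an early activation and residency marker, fell at FR8 in FS animals (−1.05 ± 0.37). LEF1, a transcription factor of naive T cells, rose at FR2 in FS animals (1.06 ± 0.42), where 5.17% of all rows rose, and was highest of the list at FR20 (0.63 ± 0.42, not past the test). The list's median was −0.60 at FR20 in FS animals and −0.56 at FR8 in CPF animals. At FR8 in CPF animals the lowest was CXCR3, another homing receptor of effector T cells (−1.81 ± 0.69), and the highest ITGA1 (0.53 ± 0.19), neither past the test.

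The granule and effector list held 11 tested rows, and its medians were −0.69 at FR20 in FS animals and −1.02 at FR8 in CPF animals. GZMK, a granzyme, fell in both (−1.05 ± 0.37 and −2.26 ± 0.78). GNLY (−1.35 ± 0.41), a granule protein, and CCL5 (−1.02 ± 0.32) fell at FR8 in CPF animals. In FS animals at FR20 these stood at −0.92 ± 0.20 and −0.75 ± 0.17, past the adjusted p alone. SRGN, a granule proteoglycan that many leukocytes make, was the highest of the list in both comparisons (0.40 ± 0.19 and 0.52 ± 0.35), without passing the test.

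The NK receptor list (5 tested rows) had medians of −0.13 at FR20 in FS animals and −0.11 at FR8 in CPF animals, and the list of interleukin receptor signalling (14 tested rows) had −0.09 and −0.13. Of the NK list, 7 of 15 symbols were matched. NCAM1, an adhesion molecule with no count in 38 libraries, rose at FR20 in FS animals (1.58 ± 0.55), beside 4.68% of all rows. KLRG1 was the lowest of the list in both (−1.19 ± 0.52 and −1.66 ± 1.05, neither past the test). Of the interleukin receptor list, JAK1, a kinase that many cells use, rose at FR2 in FS animals (1.42 ± 0.25), beside 5.17% of all rows. None of the 14 fell in a comparison with Baseline, where 0.454% to 7.39% of all rows fell. With 14 rows, a count of 0 is not set apart from these shares. The lowest were SOCS1, a feedback inhibitor, at FR20 in FS animals (−0.83 ± 0.35) and IL18RAP at FR8 in CPF animals (−2.07 ± 0.89), neither past the test. The highest in both was IL18, a cytokine that raises interferon gamma production by T and NK cells (0.88 ± 0.30 and 0.93 ± 0.57, neither past both thresholds). IL2RG, the chain that pairs with IL2RB, was at −0.26 ± 0.25 and −0.43 ± 0.49.

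**Figure D4:**
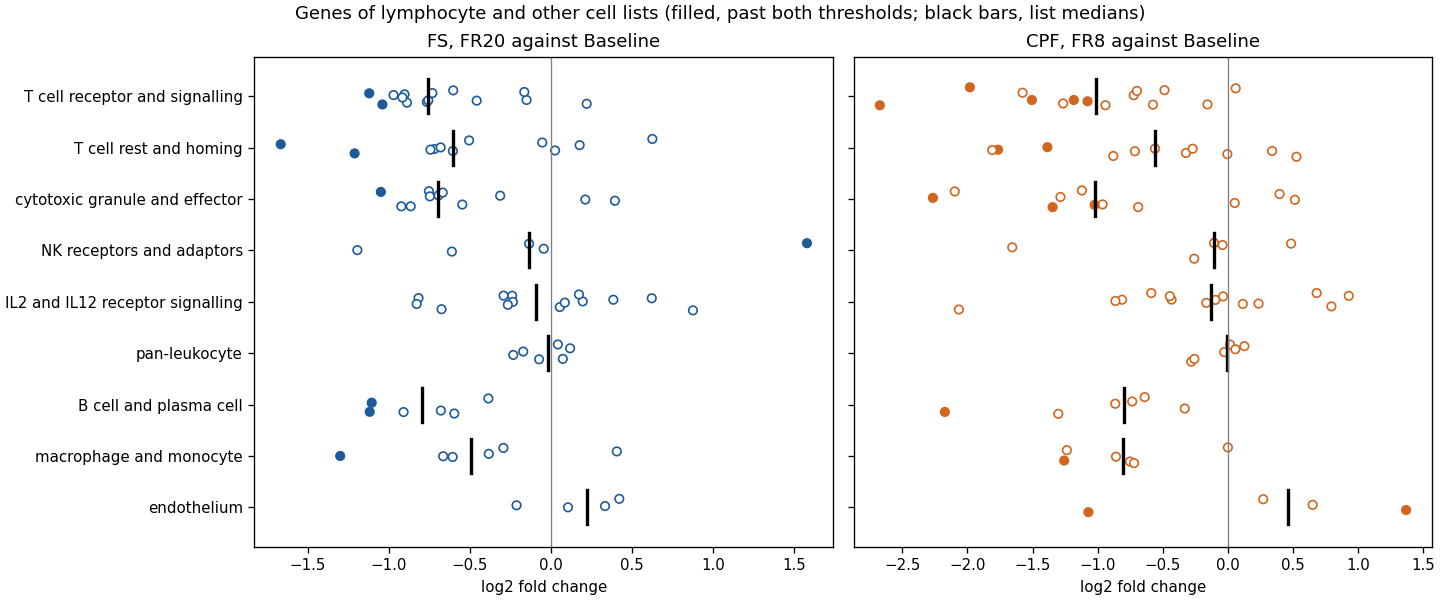
Fitted log2 fold change of each tested gene of 9 cell lists at FR20 in FS animals (left) and at FR8 in CPF animals (right); filled points passed both thresholds and black bars are list medians. The medians of the T cell receptor list lie at −0.76 and −1.01 and those of the pan-leukocyte list at −0.01 on both sides. Those of the B and plasma cell list lie at −0.79 and −0.80 and those of the macrophage list at −0.49 and −0.81. The dendritic cell, erythroid, hepatocyte, striated muscle and neutrophil lists are not drawn.

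Genes that leukocytes carry in general were set beside these as a list. Of 6 pan-leukocyte rows tested (6 of 10 symbols matched) none was called in any of the 6 comparisons with Baseline, where 0.454% to 7.39% of all rows fell. With 6 rows, a count of 0 is not set apart from these shares. At FR2 in FS animals 1 of the rows was higher past the adjusted p alone, where 6668 of all 13667 rows had an unadjusted p under 0.05. Their median was −0.01 at FR20 in FS animals and −0.01 at FR8 in CPF animals. LCP1 and CD53, the most abundant of them, stood at 0.12 ± 0.12 and −0.17 ± 0.17 in the first and at 0.13 ± 0.23 and −0.28 ± 0.31 in the second. The list's summed level ran from 125 to 258 CPM at B and 114 to 282 at FR20 in FS animals, and from 144 to 209 at B and 142 to 171 at FR8 in CPF animals. The summed T cell receptor and signalling list ran from 34.0 to 84.1 CPM at B and 24.1 to 62.7 at FR20 in FS animals (medians 49.4 and 32.5), and from 38.6 to 62.2 at B and 16.8 to 33.5 at FR8 in CPF animals (medians 47.6 and 22.8), where the groups did not overlap.

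Markers of other cells moved beside these changes, and their part in them was not tested. At FR20 in FS animals 5.25% of all rows fell, and at FR8 in CPF animals 5.14%. List medians in the same order were −0.79 and −0.80 for B and plasma cells and −0.49 and −0.81 for macrophages. They were −1.12 and −0.82 for dendritic cells and −1.14 and −1.31 for erythroid rows. For hepatocytes they were −0.95 and −0.82, and for striated muscle −0.82 and −0.88. Neutrophil medians were 1.38 and 0.26, and endothelial ones 0.22 and 0.46. Of the B and plasma cell list, CD79B, a chain of the B cell receptor complex, fell at FR20 in FS animals (−1.12 ± 0.32) and at FR8 in CPF animals (−2.17 ± 0.71). MZB1, the most abundant of that list, stood at −0.91 ± 0.22 and −0.73 ± 0.44. The list's summed level ran from 4.01 to 23.8 CPM at B and 2.59 to 12.5 at FR20 in FS animals, and from 4.62 to 9.58 at B and 2.16 to 6.57 at FR8 in CPF animals. Of 6 macrophage rows, MARCO fell at FR20 in FS animals (−1.30 ± 0.24) and CD14 at FR8 in CPF animals (−1.26 ± 0.29). Under the adjusted p alone 4 rows were lower and 1 higher in the first, and 3 lower and 0 higher in the second. No share of all rows is given for the adjusted p alone, here or below. The unadjusted p was under 0.05 in 5938 and 3878 of the 13667 rows. The summed level, to which CD14 (median 780 CPM over the 88 libraries) gave most, ran from 1004 to 2105 CPM at B and 739 to 1257 at FR20 in FS animals. In CPF animals it ran from 1313 to 1774 at B and 532 to 946 at FR8. Of 2 dendritic cell rows, FLT3 fell at FR20 in FS animals (−1.56 ± 0.29).

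Of 6 neutrophil rows, 3 rose at FR20 in FS animals (S100A8 1.94 ± 0.74, MPO 2.61 ± 0.56 and IL1R2 2.003 ± 0.40), where 4.68% of all rows rose, and none passed the test at FR8 in CPF animals. The summed neutrophil list, to which AQP9, which hepatocytes also express, gave most, ran from 336 to 1046 CPM at B and 338 to 1149 at FR20 in FS animals. Of 10 hepatocyte rows, 4 fell at FR20 in FS animals, beside 5.25% of all rows, among them ALB (−2.22 ± 0.26) and TF (−1.996 ± 0.23). Another 1 of the 10 was higher there past the adjusted p alone. At FR8 in CPF animals 2 fell (ALB −1.41 ± 0.49, TTR −1.77 ± 0.56) and 1 rose (FGG 1.797 ± 0.40), beside 5.14% and 3.70% of all rows. The summed hepatocyte list ran from 123748 to 247266 CPM at B and 43352 to 208397 at FR20 in FS animals, and from 149865 to 235529 at B and 97212 to 152345 at FR8 in CPF animals. Of 4 erythroid rows, 2 fell at FR20 in FS animals (ALAS2 −1.32 ± 0.41 and HBB −1.58 ± 0.46). None of 6 striated muscle rows and none of 4 endothelial rows fell at FR20 in FS animals, beside 5.25% of all rows. All 6 muscle rows were below 0 there, 2 of them past the adjusted p alone. In FS animals 1 muscle row fell at FR2 and 1 at FR8, beside 5.85% and 7.39% of all rows. At FR8 in CPF animals STAB1 fell (−1.07 ± 0.38) and LYVE1 rose (1.37 ± 0.35) among the endothelial rows.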

How the data were processed

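RNA-seq counts per pig Ensembl gene were deposited by the authors, not normalized and not pooled over replicates. Per their methods and processing notes, single reads were called with CASAVA 1.8.2, aligned with TopHat 1.5.0 to Sscrofa10.2, sorted with SAMtools and counted with HTSeq, whose strand setting is not given in the sources used here. All 92 columns matched a library of this series. Symbols came from a gene name table that gave 11804 of the identifiers a name.

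The members and the 14 gene lists beside them were chosen with earlier results of these data known. Fits used R 4.3.3 with DESeq2 1.42.0, edgeR 4.0.16 and limma 3.58.1, and tables and figures were made in Python 3.11.15. Rows whose CPM summed to 10 or more over libraries were tested with TMM scaling and the 2-sided quasi-likelihood F test, and called where the fold change was at least 1 in size on the log2 scale with an adjusted p under 0.05. Timepoint contrasts, and the CPF change minus the FS change, were fitted on 88 libraries with animal terms. CPF against FS, and animals that died against those that lived, were fitted at each timepoint. The standard error is the fold change divided by the square root of F. Within-animal changes used a pseudocount of 0.166 CPM. The labels give no sequencing batch.

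Animal numbers pair the libraries, since each animal was biopsied at every timepoint. Between libraries from 1 animal, residuals correlated at a median of 0.205 (over 0.1 in 94 of 126 pairs), and those of different animals of a fed group −0.0235 (543 of 2391). No 2 libraries of a group differed by less than the sampling noise.

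Genes named in the text are the members, the 3 genes most like each, the genes of the T and NK lists that were called in a comparison with Baseline, list genes with the highest or lowest fold change (printed for T and NK lists at FR20 in FS and FR8 in CPF animals), and the most abundant genes of lists of other cells. IL2RG and STAB1, LYVE1 and other called genes of the lists of other cells were added after their values were seen. The result of 1 gene of the B and plasma cell list is not reported here. The floor was set at 3 counts, and intervals of IL12RB2 ratios are exact at 95%. The alternatives comprised RLE scaling, a minimum CPM sum of 3, filterByExpr, no filter, the Wald test of DESeq2, a likelihood ratio test by edgeR, the adjusted p alone, no animal terms, each fed group alone, 91 and 92 libraries, no animals that died, and each of the 23 animals left out in turn, the last with the trend of dispersion and the rows of the full fit.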

Additional observations from a re-analysis of the deposited data

Results flagged for a closer look

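In groups of 4 or 5 CPF libraries, a sample whose gap to its nearest neighbour took an unusual share of the group's range was singled out, and 3 of 20 groups gave such a sample, where chance gives about 1 in 20. All 3 were libraries of CPF animal 4. Its CD8A level at FR20 was 7.11 CPM, with the other 4 animals between 2.16 and 3.29. Its IL12RB2 level at FR20 was 0.554 CPM, from 6 counts, with the others between 0 and 0.113. At FR8 its IL12RB2 level was 0.0799 CPM, from 1 count, with no count in the other 3 libraries, a case in which any single count is singled out. The 20 groups share the 5 animals, so the chance rate, which holds for independent groups, is only a guide. The IL2RB level of this animal at FR20, 13.6 CPM, was also the highest of its group (the others 3.28 to 7.49), without passing that rule. Each member's highest level in the 3 Baseline libraries without albumin was below its highest in the FS Baseline libraries used.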

How the results depend on the processing

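The counts of members called stayed within 1.5 times of those reported under RLE scaling, a minimum CPM sum of 3 and the likelihood ratio test in all 21 comparisons. Under the adjusted p alone 1, 3 and 2 were called at FR2vB, FR8vB and FR8vFR2 in FS animals. In these 6668, 6506 and 5365 of the 13667 rows had an unadjusted p under 0.05. With 91 or 92 libraries 0 were called at FS FR8vB, 1 at FS FR20vB, and 0 at CPF FR2vB, FR20vB and FR8vFR2. With filterByExpr, which removes IL12RB2, and with no filter, 0 were called at FR8vFR2 in either group. Without the animals that died 0 were called at FS FR8vFR2, CPF FR20vB and CPF FR8vFR2, and 1 at CPF FR8vB. With each fed group alone 0 were called at CPF FR8vFR2. DESeq2 called 1 for CPFvFS at FR8. Without the replicate block (animal terms) 0 were called at CPF FR20vB and CPF FR8vFR2, and no other count of calls moved past 1.5 times. Leaving out an animal gave 0 to 2 at CPF FR20vB, 0 to 1 at CPF FR2vB, 1 to 3 at CPF FR8vB, 0 to 0 at CPF FR8vFR2, 2 to 3 at FS FR20vB, 0 to 1 at FS FR8vB and 0 to 2 at FS FR8vFR2. A sign turned in values that did not pass the test. CD3D turned at FS FR2vB without the animals that died (−0.031), at FS FR8vB with 91 and 92 libraries (0.0816 and 0.0698) and at FS FR20vB with 92 (0.0119). With an animal left out CD3D ran from −0.0217 to 0.43 at FS FR2vB, −0.18 to 0.21 at FR8vB and −0.28 to 0.0303 at FR20vB, and from −0.50 to 0.17, −0.81 to 0.10 and −0.73 to 0.0046 in CPF animals, and IL12RB2 at CPF FR2vB from −0.66 to 0.0125. The causes were not tested. CPF comparisons rest on 4 or 5 animals, effects under 1 on the log2 scale could not be called whatever their spread, and IL12RB2 is limited by its counts.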
